A study of Homo sapiens with 12 samples.

Results

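The genes described here are 10 genes of the JAK-STAT signalling pathway: the Janus kinases JAK1, JAK2 and TYK2, the transcription factors STAT2, STAT3, STAT5B and STAT6, the receptor chains IL6ST and IL6R, and the inhibitor SOCS2. They were taken by name from the expression table, in which all 10 were found among 11548 genes. They were chosen by name with their changes between treatments in these same libraries already known, so the fits below place them within the whole table and are not independent evidence of their direction. RNA was sequenced from the human hepatocellular carcinoma cell lines Hep3B, MHCC97H and Huh7, each grown untreated, with AZD8055, with compound #57, or with both drugs, and with 1 library for each of these 12 conditions. AZD8055, used at 100 nM, blocks the kinase mTOR in both of its complexes, and compound #57 is an allosteric inhibitor of the phosphatase SHP2, encoded by PTPN11. The dose of compound #57 given alone to the sequenced cells is not named in the sources used here. Cells of MHCC97H were exposed for 24 h and those of the other lines for 48 h, so the length of exposure cannot be told apart from the line. The labels give the genotype of every sample as WT, and all cells were cultured in medium with serum. No condition was repeated within a line, so the 3 lines are the only replicates of a treatment, and each line is a single established culture.

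Signals through this pathway start when a cytokine or hormone draws receptor chains together. The Janus kinases bound to the inner parts of these chains then phosphorylate the receptor and the STAT proteins, which pair, enter the nucleus and bind DNA. SOCS proteins, whose genes are themselves STAT targets, switch the receptor complex off again. In hepatocytes the best known inputs are interleukin-6, which acts through IL6R and the shared chain IL6ST (gp130) to drive acute-phase genes, growth hormone, which acts through STAT5 to drive SOCS2 and CISH, and the interferons, which use JAK1, TYK2 and STAT2.

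The libraries held between 10667343 and 15968317 reads, of which 98.6% to 99.2% lay in the genes of the table. All 11 hepatocyte markers listed were in the table, and their summed level was 254059 to 614723 reads per 10000000 in Hep3B and 368288 to 523306 in Huh7 but 52971 to 61761 in MHCC97H. Of 6 leukocyte markers the table held only LYZ, and of 4 endothelial markers only PECAM1. LYZ moved with treatment, from 1140 reads per 10000000 untreated to 381 with AZD8055, 68.5 with compound #57 and 31.6 with the combination in Hep3B, and from 7512 to 1540, 1463 and 523 in Huh7, and was below 5 in MHCC97H. Levels are given as the deposited log2 values, which are the log2 of reads per 10000000 reads plus 1. Where a gene is given with its reads, these are whole counts not scaled to library size. Their order between libraries can therefore differ from that of the levels.

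Sequences before the start sites are shown first, because the DNA motif that STAT dimers bind, TTCNNNGAA, stands before several of the pathway genes described further on. RefSeq start sites on GRCh38.p14 were matched for 9 of the 10 members and for 46 of 58 other pathway genes. SOCS2 had no entry. In the 250 bases before each start, none of the 9 members held TTCNNNGAA, which reads the same on both strands, and 7 of the 46 other genes did (CISH, FGA, GHR, HAMP, IFNLR1, IRF1 and LIFR). Counted by gene in the same way, with a match before any of its starts, the share was 7.61% of the 8714 table genes matched, and counted by window it was 6.57% of 35116 RefSeq promoters and 5.43% of those of table genes. The wider spacing bound by STAT6, TTC and GAA with 4 bases between them, was in 5.38% of promoters, in none of the members and in STAT5A among the other genes. An interferon response motif, a pair of GAAA with 2 bases between them, searched on both strands, was in 3.02% of promoters and in none of the members or other pathway genes. The forkhead motif TGTTTAC, also searched on both strands, was in 2.98% of promoters, in none of the members, and in C4BPA, IFNAR1, JUNB and SH2B3. The sequences below are the JAK1 window, which holds none of these motifs, and the stretches with the matches of 3 genes named later. These are CISH (2 of its 4 matches), IRF1 and HAMP. Capitals mark TTCNNNGAA.
JAK1, chr1:65067747-65067996, minus strand: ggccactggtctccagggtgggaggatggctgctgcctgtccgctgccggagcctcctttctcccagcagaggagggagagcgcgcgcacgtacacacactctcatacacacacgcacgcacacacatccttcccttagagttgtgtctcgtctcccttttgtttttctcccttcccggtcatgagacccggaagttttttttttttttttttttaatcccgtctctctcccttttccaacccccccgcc
CISH, chr3:50611775-50611907, minus strand: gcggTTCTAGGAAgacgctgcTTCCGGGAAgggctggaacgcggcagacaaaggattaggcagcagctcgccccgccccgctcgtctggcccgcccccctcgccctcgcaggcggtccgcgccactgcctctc
IRF1, chr5:132490869-132490928, minus strand: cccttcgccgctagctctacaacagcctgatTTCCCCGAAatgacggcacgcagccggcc
HAMP, chr19:35282408-35282467, plus strand: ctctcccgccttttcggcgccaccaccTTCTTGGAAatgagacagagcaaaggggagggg
The CISH stretch covers the 133 bases next to its start, which no GENCODE exon overlaps, with the matches beginning 129 and 112 bases before it, and the other matches begin 241 and 230 bases before it. The JAK1 window lies before the outermost of its 3 RefSeq starts, and 189 of its bases are also an exon of the lncRNA ENSG00000288804. The IRF1 match begins 124 bases and the HAMP match 93 bases before the start. A match of letters says nothing of whether a STAT was bound there in these cells.

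JAK1 encodes the kinase shared by the interleukin-6, interferon and interleukin-4 receptor families, and lies on the minus strand of hg38 at chr1:64833223-65067754. In Hep3B its log2 level was 9.72 untreated, 10.32 with AZD8055, 10.49 with compound #57 and 11.23 with both drugs. In MHCC97H the levels were 10.80, 11.40, 11.18 and 11.95 in the same order, and in Huh7 10.38, 11.11, 10.83 and 11.75. In every line the untreated library was the lowest, the combination the highest, and both single drugs lay between. That order in all 3 lines was held by 2 members, JAK1 and SOCS2, and by 610 of 11548 genes (5.28%). The single drugs stood in different order, with AZD8055 above compound #57 in MHCC97H and Huh7 and below it in Hep3B.

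**Figure D1:**
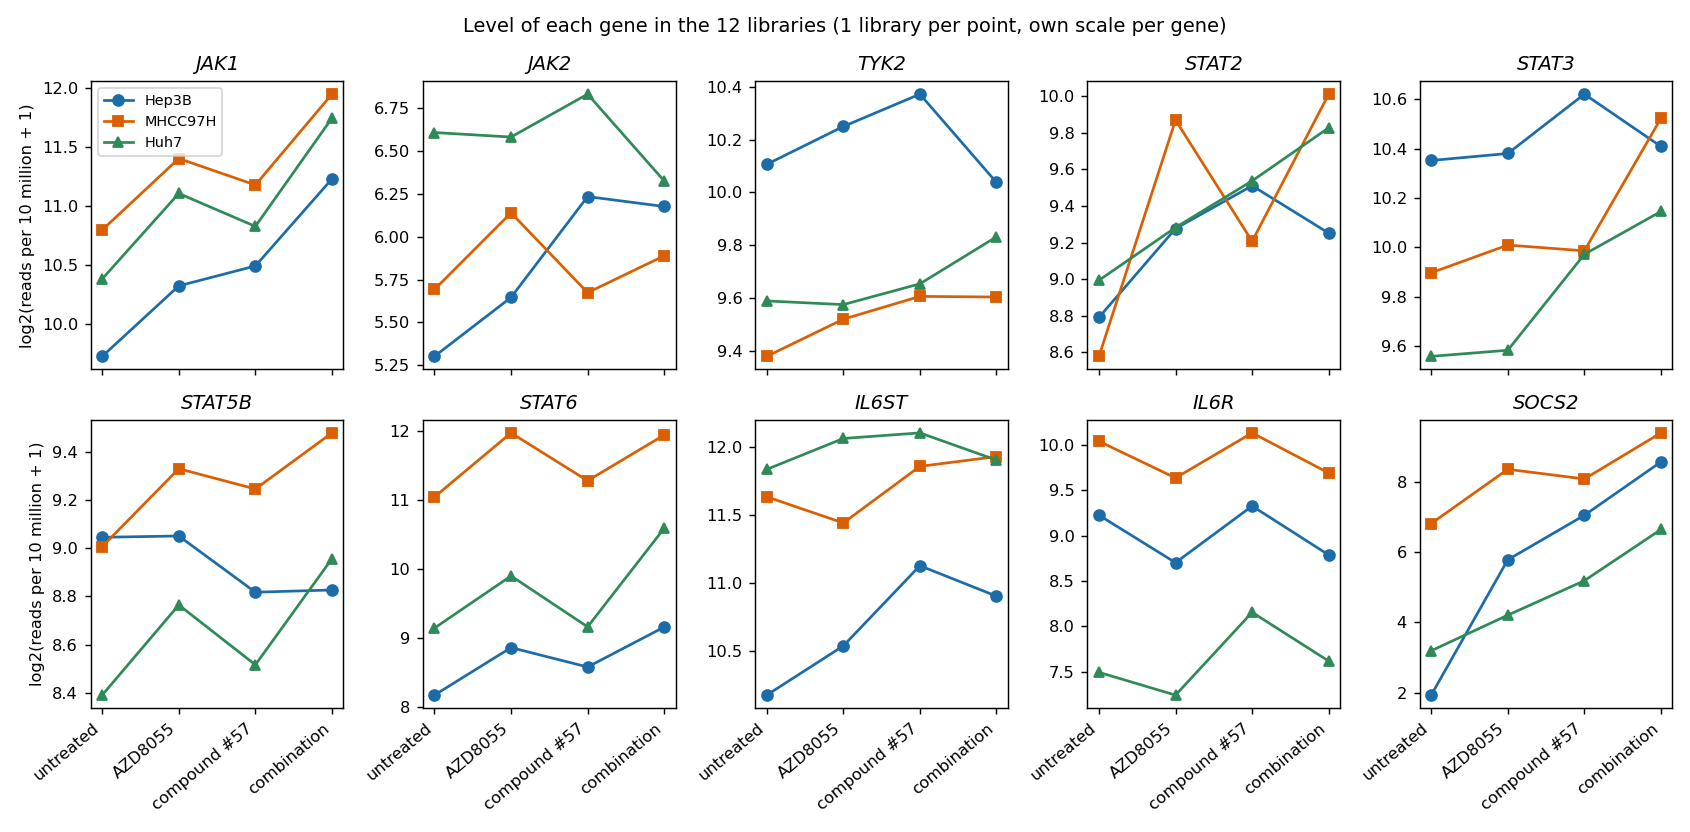
Levels of the 10 genes as log2(reads per 10000000 + 1) in the 12 libraries, 1 point per library, with lines joining the treatments (x axis) of each cell line and an own y axis for each gene. JAK1 climbs in every line from untreated (9.72 to 10.80) to the combination (11.23 to 11.95), whereas TYK2 stays between 9.38 and 10.37 in all libraries.

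With the combination, the ratio of JAK1 read shares to untreated cells was 2.85 in Hep3B, with a 95% counting interval of 2.64 to 3.07. It was 2.23 in MHCC97H (2.12 to 2.34) and 2.58 in Huh7 (2.45 to 2.72). These intervals are exact, cover counting error of the 2 libraries only, and say nothing of the spread between cultures. With AZD8055 alone the ratios were 1.52, 1.52 and 1.65, and with compound #57 alone 1.70, 1.30 and 1.36, in the order Hep3B, MHCC97H and Huh7. Over the 3 lines, limma, a linear model fitted to all genes with treatment and cell line as terms, gave a JAK1 log2-fold change of 1.34 ± 0.12 (SE) for the combination (adjusted p = 0.00119), 0.64 ± 0.12 for AZD8055 (adjusted p = 0.0361) and 0.53 ± 0.12 for compound #57 (adjusted p = 0.0912). JAK1 therefore rose with AZD8055 and with the combination, and the change with compound #57 was in the same direction in 3 of 3 lines without passing the test. Against each single drug, the combination differed by 0.81 ± 0.12 from compound #57 (adjusted p = 0.0163) and by 0.70 ± 0.12 from AZD8055 (adjusted p = 0.145). All comparisons with untreated cells share the same untreated libraries, and those with the combination share the combination libraries.

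The JAK1 change with both drugs was close to the sum of the single changes on the log2 scale. It exceeded the sum by 0.14 in Hep3B, 0.16 in MHCC97H and 0.19 in Huh7, and the limma interaction term was 0.17 ± 0.17 (adjusted p = 0.9999). For scale, the median of this difference over all genes was 0.02, -0.04 and 0.00 in these lines. Its quartiles were -0.26 and 0.26 in Hep3B, -0.24 and 0.13 in MHCC97H, and -0.25 and 0.24 in Huh7. The JAK1 value thus lay between the quartiles in Hep3B and Huh7 but above the upper one in MHCC97H.

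The other Janus kinases did not pass the test in any comparison of treatments. TYK2, which serves the interferon and interleukin-12 families, ranged in log2 level from 10.04 to 10.37 in Hep3B, from 9.38 to 9.61 in MHCC97H and from 9.58 to 9.83 in Huh7. Its limma log2-fold change was 0.13 ± 0.12 for the combination (adjusted p = 0.395). JAK2, the kinase of the growth hormone and erythropoietin receptors, was counted with 41, 60, 116 and 88 reads in untreated, AZD8055, compound #57 and combination libraries of Hep3B. The same libraries of MHCC97H held 66, 99, 57 and 72 reads, and those of Huh7 154, 114, 153 and 92. By read share, JAK2 with AZD8055 in Huh7 had a ratio to untreated of 0.982. Its ratio in the combination was 0.820 in Huh7 (95% interval 0.627 to 1.07), 1.15 in MHCC97H (0.811 to 1.63) and 1.85 in Hep3B (1.27 to 2.76). The lines thus did not share a direction for JAK2, and its limma change was 0.26 ± 0.26 (adjusted p = 0.448).

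STAT6, the transcription factor of interleukin-4 and interleukin-13 signalling, lies on the minus strand at chr12:57095408-57132139. Its log2 level in untreated, AZD8055, compound #57 and combination libraries was 8.17, 8.86, 8.58 and 9.16 in Hep3B. It was 11.04, 11.97, 11.28 and 11.94 in MHCC97H, and 9.15, 9.90, 9.16 and 10.59 in Huh7. Both conditions with AZD8055 were above both conditions without it in each line. In Huh7 compound #57 alone left the level within 0.02 of untreated, but the combination was 0.69 above AZD8055 alone. In MHCC97H the combination differed from AZD8055 by -0.03.

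STAT6 rose with AZD8055, by a limma log2-fold change of 0.79 ± 0.16 (adjusted p = 0.0397), and with the combination, by 1.11 ± 0.16 (adjusted p = 0.00291). It was higher in the combination than with compound #57, by 0.89 ± 0.16 (adjusted p = 0.0284). The changes with compound #57 alone (0.22 ± 0.16, adjusted p = 0.449) and between the combination and AZD8055 (0.32 ± 0.16, adjusted p = 0.396) did not pass. STAT6 and JAK1 were the 2 members that passed with AZD8055, among 255 genes that rose (2.21% of the table), and the same 2 passed between the combination and compound #57, where 302 genes were higher (2.62%). With any 1 line left out, 0 members passed with AZD8055, and between the combination and compound #57 0 members passed without Hep3B or without Huh7 and 2 without MHCC97H.

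STAT2, which carries type I interferon signals to the nucleus, had log2 levels of 8.79, 9.28, 9.51 and 9.25 in Hep3B, 8.58, 9.87, 9.21 and 10.01 in MHCC97H, and 8.99, 9.28, 9.54 and 9.83 in Huh7, in the same order of treatments. The untreated library was the lowest in each line. MHCC97H stood out for the 2 conditions with AZD8055, at ratios to untreated of 2.45 (95% interval 2.21 to 2.73) and 2.71 (2.44 to 3.01), whereas Hep3B was highest with compound #57 alone. STAT2 rose with the combination by 0.91 ± 0.22 (adjusted p = 0.0127). The changes of 0.69 ± 0.22 with AZD8055 (adjusted p = 0.0888) and 0.63 ± 0.22 with compound #57 (adjusted p = 0.159) did not pass.

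STAT3, the factor that carries interleukin-6 signals to acute-phase genes, moved less. Its log2 levels were 10.35, 10.38, 10.62 and 10.41 in Hep3B, 9.90, 10.01, 9.99 and 10.52 in MHCC97H, and 9.56, 9.58, 9.97 and 10.15 in Huh7. With AZD8055 alone the ratios to untreated were 1.02, 1.08 and 1.02 in Hep3B, MHCC97H and Huh7. With the combination they were 1.54 (95% interval 1.43 to 1.66) in MHCC97H and 1.502 (1.39 to 1.63) in Huh7, but 1.04 (0.968 to 1.12) in Hep3B. STAT3 rose with the combination by 0.42 ± 0.15 (adjusted p = 0.0467), and this call was lost when each library was centred on its median (0.35, adjusted p = 0.0863).

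STAT5B, which acts downstream of growth hormone, did not pass in any comparison of treatments. Its levels were 9.04, 9.05, 8.82 and 8.83 in Hep3B, 9.01, 9.33, 9.25 and 9.48 in MHCC97H, and 8.39, 8.76, 8.52 and 8.96 in Huh7. Both Hep3B libraries with compound #57 were below both without it, whereas in MHCC97H and Huh7 the untreated library was the lowest. STAT5A and STAT5B are near-identical over much of their coding sequence and share 415 exon bases on opposite strands in GENCODE, so how reads were split between them is uncertain.

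**Figure D2:**
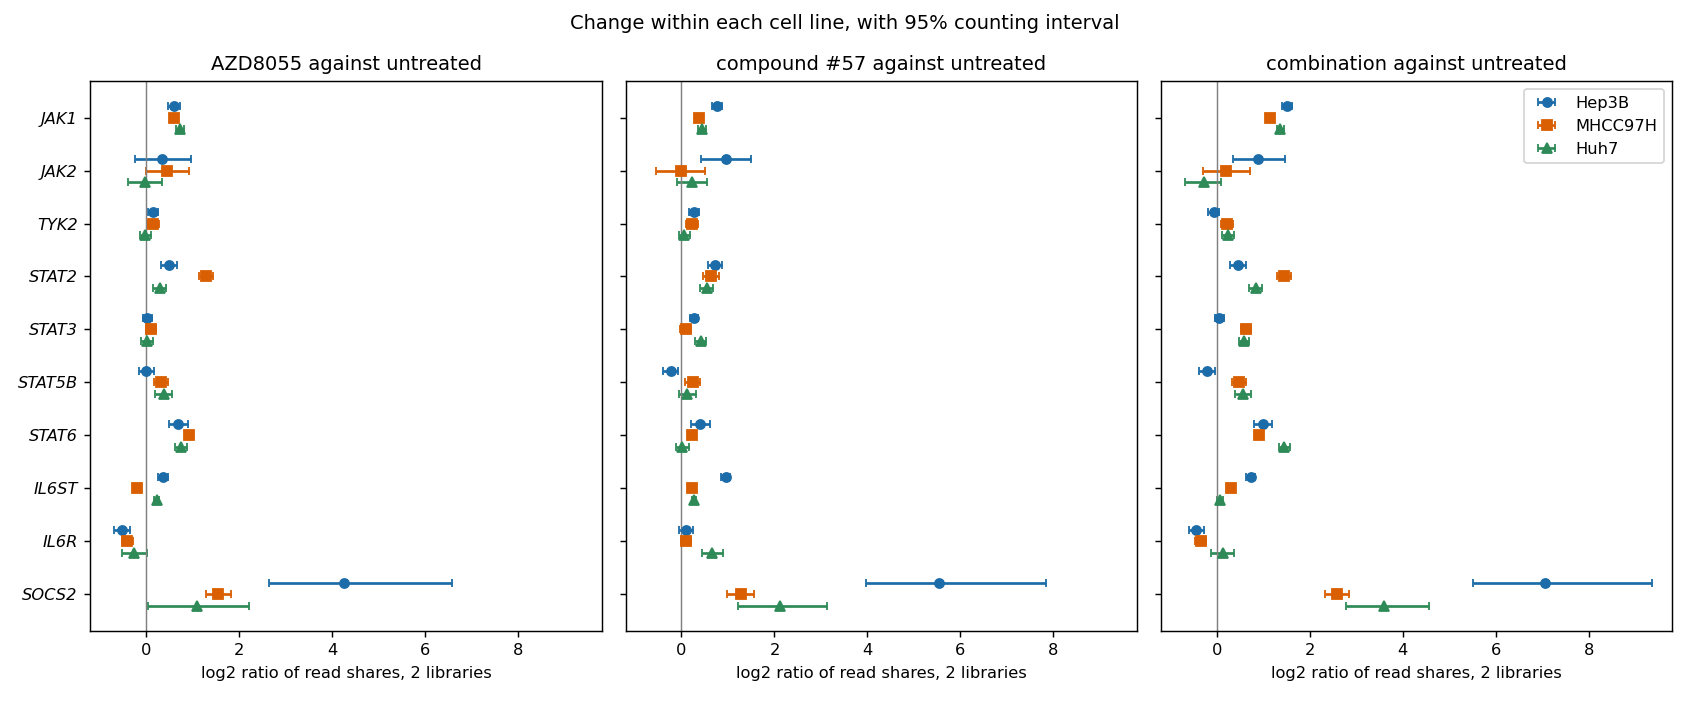
Change of each gene within each cell line as the log2 ratio of read shares between a treated and the untreated library (x axis), with bars for the 95% counting interval. JAK1 and STAT6 lie to the right of 0 in all lines with AZD8055 and with the combination, SOCS2 lies furthest right, and IL6R lies to the left of 0 with AZD8055 in Hep3B and MHCC97H, where its intervals do not reach 0.

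The receptor chains of interleukin-6 were not called in any comparison of treatments. IL6R, the chain that binds the cytokine, had log2 levels of 9.23, 8.70, 9.33 and 8.79 in Hep3B, 10.04, 9.64, 10.13 and 9.69 in MHCC97H, and 7.49, 7.24, 8.15 and 7.62 in Huh7. In each line AZD8055 gave the lowest library and compound #57 the highest. IL6R was the only member with a negative limma change with AZD8055 (-0.39 ± 0.14, adjusted p = 0.11). Against compound #57 alone, the combination had ratios of 0.688 in Huh7 (95% interval 0.581 to 0.813), 0.688 in Hep3B (0.619 to 0.764) and 0.736 in MHCC97H (0.677 to 0.800), and the limma change was -0.51 ± 0.14 (adjusted p = 0.0683).

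IL6ST, the chain through which interleukin-6, leukaemia inhibitory factor and oncostatin M signal, had log2 levels of 10.18, 10.54, 11.13 and 10.91 in Hep3B, 11.64, 11.44, 11.86 and 11.93 in MHCC97H, and 11.84, 12.07, 12.11 and 11.91 in Huh7. With compound #57 the ratio to untreated was 1.94 (95% interval 1.81 to 2.07) in Hep3B, 1.17 in MHCC97H and 1.20 in Huh7. Over the lines this was 0.48 ± 0.17 (adjusted p = 0.159), so IL6ST did not pass the test.

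SOCS2, an inhibitor of growth hormone receptor signalling that lies on the plus strand at chr12:93569814-93583487, had the widest range of the 10 genes. In Hep3B it was counted with 3 reads untreated, 66 with AZD8055, 205 with compound #57 and 466 with the combination. In MHCC97H the reads were 145, 465, 307 and 828, and in Huh7 13, 21, 48 and 115. Untreated cells were thus near the limit of detection in Hep3B and Huh7 but not in MHCC97H. The combination stood above both single drugs and the untreated library in every line.

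The ratio of SOCS2 read shares between the combination and untreated cells was 12.1 in Huh7 (95% counting interval 6.83 to 23.5), 6.01 in MHCC97H (5.04 to 7.22) and 134 in Hep3B (45.6 to 653). The wide interval in Hep3B comes from the 3 untreated reads. In the order Hep3B, MHCC97H and Huh7, the ratios with AZD8055 alone were 19.2 (6.28 to 95.4), 2.93 (2.43 to 3.56) and 2.14 (1.02 to 4.66), and with compound #57 alone 46.6 (15.7 to 228), 2.42 (1.98 to 2.97) and 4.35 (2.32 to 8.75). The combination exceeded compound #57 by ratios of 2.88, 2.49 and 2.79, close to one another across the lines. On the log2 scale of the table, which understates changes of low genes, limma gave 4.22 ± 0.67 for the combination (adjusted p = 0.00334), 2.13 ± 0.67 for AZD8055 (adjusted p = 0.087) and 2.79 ± 0.67 for compound #57 (adjusted p = 0.0964). By this test SOCS2 rose with the combination, and its changes between the combination and AZD8055 (2.09 ± 0.67, adjusted p = 0.243) or compound #57 (1.43 ± 0.67, adjusted p = 0.215) did not pass. The antisense gene SOCS2-AS1 shares 277 exon bases with SOCS2. The labels describe a stranded preparation, but whether strand was used in counting is not given in the sources used here, so reads of the pair cannot be told apart. The same limit holds for exon bases that other members share with genes on the opposite strand. IL6ST shares 797 with the lncRNA ENSG00000262211, STAT6 59 with LRP1 and 69 with NAB2, and JAK1 10 with RAVER2.

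Over all members, 5 rose with the combination against untreated cells (JAK1, STAT2, STAT3, STAT6 and SOCS2) and none fell, where 20.9% of all genes rose and 15.1% fell. The count was 5 without Hep3B, 4 without MHCC97H and 0 without Huh7. When each library was centred on its median, 47.2% of all calls were higher, against 58.0% as deposited, and with AZD8055 54.1% against 74.6%. The median log2-fold change of the 10 genes was 0.39 with the combination, against 0.09 over the table. With AZD8055 it was 0.24 against 0.03, and with compound #57 0.33 against 0.05. Compound #57 against untreated cells gave no call among the members by limma on the log2 values or by limma voom on the reads, and 1 call in the whole table (0.00866%), with 4 members and 2501 genes at an unadjusted p under 0.05. The combination against AZD8055 gave no call in the table (0.0%), with 3 members and 1673 genes at an unadjusted p under 0.05. The interaction term gave none either (0.0%), with 0 members and 178 genes at an unadjusted p under 0.05. In the direction of change, 6 members were higher than untreated in all 3 lines with AZD8055 (28.4% of all genes), 8 with compound #57 (30.6%) and 6 with the combination (33.4%). Some of these directions depended on scaling. With each library centred on its median, STAT3 (-0.016) and STAT5B (-0.038) turned negative with AZD8055 in Hep3B. So did STAT3 (-0.020) and IL6R (-0.017) in MHCC97H and STAT6 (-0.029) in Huh7 with compound #57, and STAT3 (-0.014) in Hep3B with the combination.

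**Figure D3:**
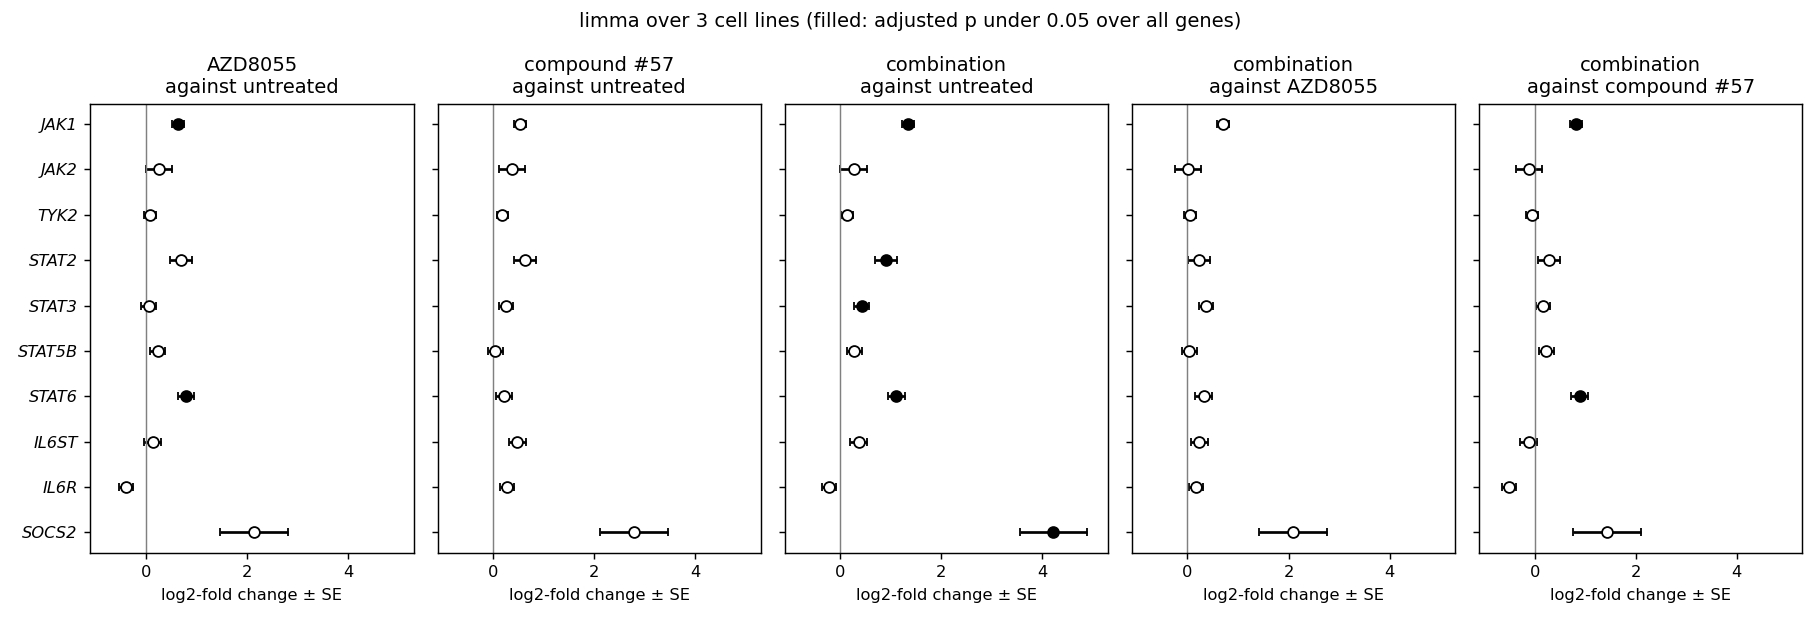
limma log2-fold changes of the 10 genes over 3 cell lines in 5 comparisons of treatments (x axis, log2 units), with bars for 1 SE. Filled points have an adjusted p under 0.05 over all 11548 genes, which holds for JAK1 and STAT6 in 3 comparisons and for STAT2, STAT3 and SOCS2 in the combination against untreated cells.

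The cell lines differed more than the treatments for several members. Between MHCC97H and Hep3B 8 members were called, between MHCC97H and Huh7 6, and between Hep3B and Huh7 7, at background shares of 67.8%, 70.2% and 55.1% of all genes in either direction. In these fits the 4 differently treated libraries of a line take the place of replicates. The SEs and p-values thus measure how unevenly the treatments act in different lines, and not the spread between cultures of a line. STAT6 was highest in MHCC97H, by a limma log2 difference of 2.86 ± 0.14 from Hep3B (adjusted p = 6.92e-08) and 1.86 ± 0.14 from Huh7 (adjusted p = 1.35e-06), and its lines did not overlap between MHCC97H (lowest 11.04) and the others (highest 10.59). IL6R followed the order MHCC97H, Hep3B and Huh7 with no overlap between lines, and differed by 2.25 ± 0.12 between the first and the last (adjusted p = 1.07e-07). IL6ST was lowest in Hep3B, by 1.29 ± 0.14 against Huh7 (adjusted p = 6.15e-05), and did not differ detectably between MHCC97H and Huh7 (-0.26 ± 0.14, adjusted p = 0.132). TYK2 and STAT3 were highest on average in Hep3B, at 0.53 ± 0.10 (adjusted p = 0.00166) and 0.63 ± 0.13 (adjusted p = 0.00219) above Huh7. JAK1 was lowest in Hep3B, by 0.89 ± 0.10 against MHCC97H (adjusted p = 3.3e-05), but its lines overlapped because the range over treatments was wider than the gap. STAT2 did not differ detectably between any lines (log2 differences of 0.21, 0.01 and -0.20). In MHCC97H the summed hepatocyte markers were also lower and the exposure shorter, and the part of either in these differences was not tested.

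Divided by exon length, the levels could be compared between genes. In untreated Hep3B, TYK2 led with 129 reads per 10000000 per kilobase of exon, followed by STAT3 (116), IL6ST (95.9), IL6R (85.4) and JAK1 (64.0). In untreated MHCC97H, STAT6 (289) and IL6ST (264) led, followed by IL6R (150) and JAK1 (135). In untreated Huh7, IL6ST (303) stood well above JAK1 (101), TYK2 (90.3) and STAT6 (77.4). JAK2 (4.86 to 12.2) and SOCS2 (0.43 to 17.2) were the lowest genes in every untreated line. With a single library per condition, neighbours in these orders such as TYK2 and STAT3 in Hep3B were not tested against each other. The order also depends on which transcripts are used, since with the length of the longest transcript STAT3, not IL6ST, had the highest median over treatments in Hep3B (266 reads per 10000000 per kilobase).

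Beyond the members, 58 other genes of the pathway lists were in the table, of 85 listed. With AZD8055, 5 of the 58 rose and none fell, where 2.21% of all genes rose. They were STAT5A, the inhibitor CISH, and the STAT targets IRF1, PIM1 and JUNB. This count was 0 without Hep3B, 0 without Huh7 and 4 without MHCC97H, and 0 without the cell-line term or with only the compared libraries fitted. None passed with compound #57 in the main fit, where 16 of the 58 had an unadjusted p under 0.05. With compound #57, 2 rose by limma voom and 5 rose without MHCC97H. With the combination 24 rose and 4 fell, at background shares of 20.9% and 15.1%. Without Hep3B 6 rose and 1 fell, without MHCC97H 20 and 7, and without Huh7 0 and 0. Without the cell-line term 0 rose and 0 fell, and with only the compared libraries fitted 10 and 0. The median log2-fold change of the 58 genes with the combination was 0.39, against 0.09 over all genes. The lists were written with earlier results of these data known.

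Among the kinases and STATs outside the members, JAK3 and STAT4 were not in the table. STAT5A had 101, 194, 205 and 243 reads in Hep3B, 83, 268, 102 and 257 in MHCC97H and 82, 132, 90 and 210 in Huh7, in the order untreated, AZD8055, compound #57 and combination. In Hep3B the AZD8055 library held 12233696 reads and the compound #57 library 15629071, so these counts do not give the order of the levels. STAT5A rose with AZD8055 by 1.12 ± 0.21 (adjusted p = 0.0375) and with the combination by 1.51 ± 0.21 (adjusted p = 0.0026). Of the 6 STAT genes measured, 4 rose with the combination, where 20.9% of all genes rose.

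Of 7 receptor chains of the gp130 family, 2 rose with the combination, near the background of 20.9% of all genes. They were LIFR and LEPR, at log2-fold changes of 0.87 ± 0.28 (adjusted p = 0.0368) and 0.84 ± 0.23 (adjusted p = 0.0201). LEPR was counted with 1 to 4 reads in MHCC97H. Of 12 receptor chains of other families, 7 rose with the combination, where 20.9% of all genes rose. All 12 had a positive change, as had 56.1% of all genes. The 7 included both chains of the interferon-gamma receptor, IFNGR1 (0.80 ± 0.12, adjusted p = 0.00301) and IFNGR2 (0.72 ± 0.18, adjusted p = 0.0146). Also among them were the type I chain IFNAR1 (0.42 ± 0.11, adjusted p = 0.0163) and IL13RA1 (0.67 ± 0.15, adjusted p = 0.0095), which pairs with IL4R upstream of STAT6. IFNLR1, IL22RA1 and EPOR were the other 3. The calls of LIFR, IFNLR1 and EPOR were lost when libraries were centred on their medians.

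Among 15 inhibitors, SOCS2 and 3 others rose with the combination: CISH (1.35 ± 0.29, adjusted p = 0.00852), SOCS3, the inhibitor of gp130 signalling (1.57 ± 0.45, adjusted p = 0.0241), and the phosphatase PTPN6 (0.82 ± 0.19, adjusted p = 0.0104). The adaptor SH2B3 (-0.67 ± 0.18, adjusted p = 0.0195) and the nuclear inhibitors PIAS2 (-0.53 ± 0.18, adjusted p = 0.0464) and PIAS3 (-0.60 ± 0.15, adjusted p = 0.014) fell. These counts of 4 higher and 3 lower were near the background shares of 20.9% and 15.1%. The median change of the 15 was -0.06, against 0.09 over all genes. CISH, with the STAT matches printed above, was counted with 38, 80, 93 and 117 reads in Hep3B, 241, 724, 226 and 408 in MHCC97H and 17, 43, 44 and 47 in Huh7. The Hep3B counts with AZD8055 and compound #57 come from libraries of 12233696 and 15629071 reads, so they do not give the order of the levels. The highest library for CISH was the combination in Hep3B and Huh7 but AZD8055 alone in MHCC97H.

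Among 13 further STAT targets, PIM1 and JUNB had the largest limma changes with AZD8055 (2.24 ± 0.34, adjusted p = 0.0283, and 2.13 ± 0.34, adjusted p = 0.029). PIM1, a kinase that promotes survival, was counted with 113, 502, 180 and 548 reads in Hep3B, 616, 1653, 668 and 1721 in MHCC97H and 102, 880, 168 and 718 in Huh7. Its reads split the libraries by AZD8055 in every line. IRF1, an interferon-induced transcription factor, rose with AZD8055 (0.79 ± 0.16, adjusted p = 0.0394) and with the combination (1.47 ± 0.16, adjusted p = 0.00168), where it was highest in each line. BCL3 and PIM3 rose and PIM2 fell (-0.76 ± 0.18, adjusted p = 0.0132) with the combination. BCL2L1, which restrains cell death, showed -0.58 ± 0.15 with compound #57 (adjusted p = 0.104). With AZD8055 its change was 0.47 ± 0.15 (adjusted p = 0.0888), and with the combination -0.03 ± 0.15 (adjusted p = 0.887).

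Of 16 acute-phase genes listed, which encode plasma proteins made by the liver, 9 were in the table (CRP, SAA1, SAA2, HP, LBP, SERPINA3 and ITIH4 were not). The 9 had a median log2-fold change of 1.51 with compound #57, -0.05 with AZD8055 and 1.39 with the combination, against 0.05, 0.03 and 0.09 over all genes. The fibrinogen chains FGB (2.28 ± 0.57, adjusted p = 0.0142), FGG (2.07 ± 0.53, adjusted p = 0.0152) and FGA (1.496 ± 0.39, adjusted p = 0.0169), the haem carrier HPX (1.39 ± 0.42, adjusted p = 0.0303) and HAMP, the iron hormone hepcidin (1.45 ± 0.44, adjusted p = 0.0277), rose with the combination, 5 of 9 at a background of 20.9%. C4BPA (-0.74), A2M (-0.60) and ORM1 (-0.32) had negative changes that did not pass. With compound #57 alone none of the 9 passed, although FGB had the larger change of 2.31 ± 0.57 (adjusted p = 0.101). FGB was counted with 2021, 2212, 37472 and 12942 reads in Hep3B, 249, 157, 1167 and 1515 in MHCC97H and 22498, 28390, 34706 and 53398 in Huh7. Hep3B thus had its highest level with compound #57 alone, and the other lines with the combination. HPX in MHCC97H had 2 to 7 reads and HAMP 6 to 11, so their changes rest mainly on Hep3B and Huh7. The summed hepatocyte markers moved with compound #57 too, from 385367 to 614723 reads per 10000000 in Hep3B, 448347 to 523306 in Huh7 and 52971 to 54769 in MHCC97H, whereas with the combination they were 293906, 405873 and 58721. Their part in the acute-phase changes was not tested.

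**Figure D4:**
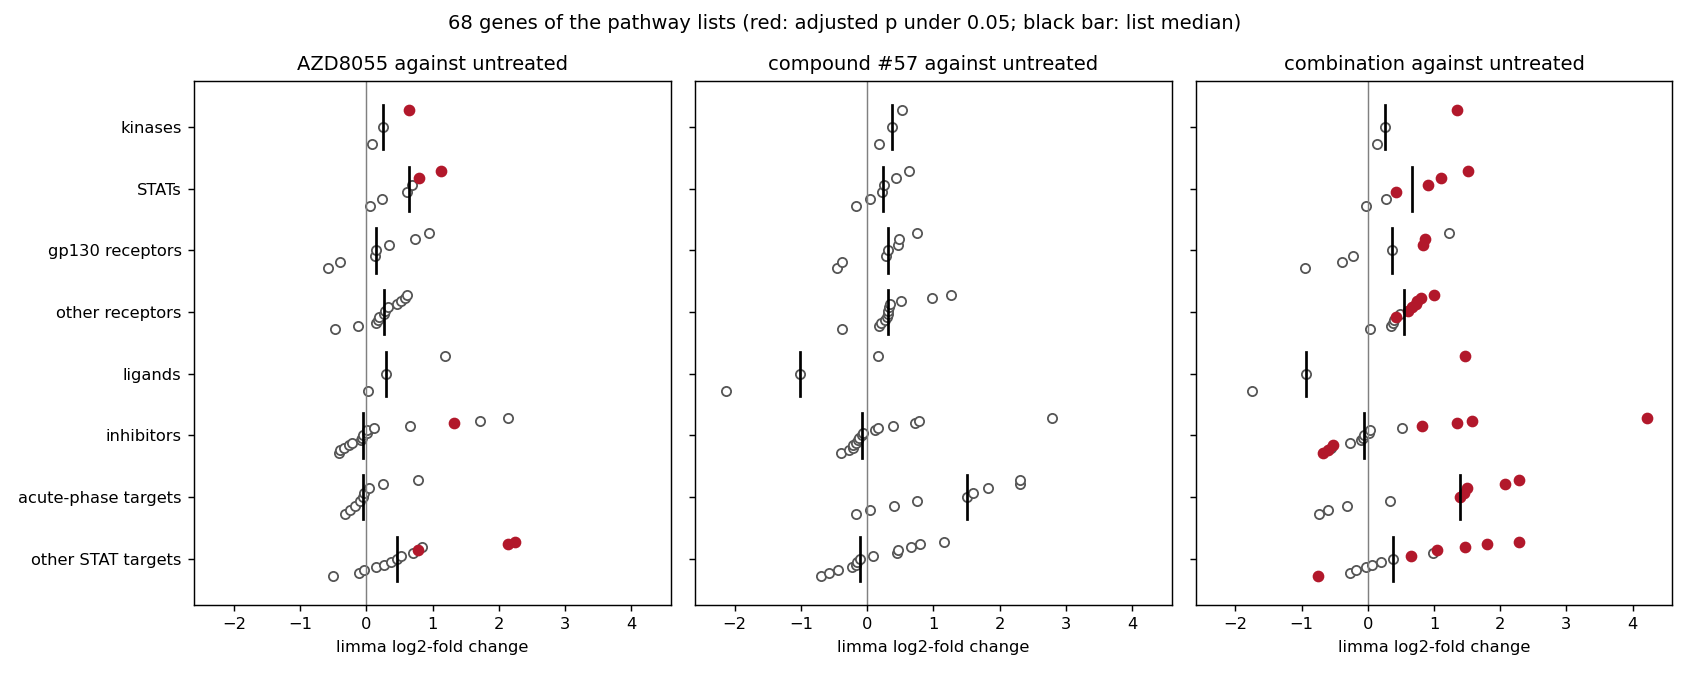
limma log2-fold changes (x axis) of the 68 genes of the pathway lists, members included, by list (y axis) in 3 comparisons with untreated cells. Red points have an adjusted p under 0.05 and black bars mark list medians, which for the acute-phase genes are 1.51 with compound #57 and -0.05 with AZD8055.

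The genes whose pattern was most like that of JAK1 were sought by Pearson's r over the 12 libraries, after the mean of each cell line was subtracted, among 10476 genes with at least 10 reads in every library. The 5 highest were ZNF181 (0.98), TICAM1 (0.98), LAPTM4A (0.98), KLHDC8B (0.98) and ZNF33B (0.98). ZNF181, for example, had log2 levels of 5.82, 6.43, 6.51 and 7.07 in Hep3B, 6.65, 7.38, 7.05 and 7.77 in MHCC97H and 6.41, 7.04, 6.58 and 7.49 in Huh7, in the order untreated, AZD8055, compound #57 and combination. Among the members, STAT6 came closest to JAK1 (0.89, rank 432), followed by STAT2 (0.75, rank 1714) and STAT3 (0.64, rank 2549). IL6R was the only member compared with a negative r (-0.37, rank 6985). SOCS2 was not eligible because of its low reads. The points share libraries, treatments and depth, so these values describe likeness and were not tested.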

How the data were processed

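Total RNA of 12 samples was prepared as polyA-selected libraries with a TruSeq kit and aligned by the authors to hg38. The counting tool is not given in the sources used here. The authors deposited log2 values per gene. Less 0.001, a value is the log2 of 1 plus the gene's reads per 10000000 reads of its library. Library totals solved as whole numbers, and 100% of the values then gave whole reads (tolerance 0.001). A gene listed at 0.001 has 0 reads. Of 11548 genes, 305 had 0 reads in a library, and 4 names stood on 2 lines.

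The main test was limma 3.58.1 in R 4.3.3 (lmFit, eBayes with trend) on the log2 values of 12 libraries, with terms for treatment and for line and Benjamini-Hochberg adjustment over all genes, and a call was an adjusted p under 0.05. Libraries of 1 line are paired through the line itself. Log2-fold changes include the added 1. Ratios within a line have exact 95% binomial (Clopper-Pearson) intervals that cover counting error only. Coordinates and exon lengths came from GENCODE release 44.

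The members and gene lists were chosen with earlier results of these data known. All 10 members were described in every comparison. Other pathway genes were named if called between treatments, or if among the 3 per direction with the largest smallest change in the same direction in 3 lines. Some genes that this rule names are not reported here. Alternatives were another offset (10), median centring, a filter keeping the 75% of genes with the highest mean, limma voom on the recovered reads, fits of the compared libraries only, no cell-line term, and leaving out each line or treatment. The lists of fibroblast (3 of 6 in the table, 98.9 to 1632 summed reads per 10000000) and biliary markers (3 of 4, 1774 to 12393) completed the marker check. Endothelial PECAM1 reached 4.30 to 541 and leukocyte LYZ 0.77 to 7512 reads per 10000000.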

Additional observations from a re-analysis of the deposited data

Results flagged for a closer look

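For 10 of 50 pairs of a member and a comparison, cell lines changed in opposite directions with counting intervals on opposite sides of 0. With 1 library per condition these differences between lines were not tested. All values are log2-fold changes within a line.

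IL6ST with AZD8055 against untreated cells was higher in Hep3B (0.36) and Huh7 (0.23) and lower in MHCC97H (-0.19). Between the combination and AZD8055, IL6ST was higher in Hep3B (0.37) and MHCC97H (0.49) and lower in Huh7 (-0.16). Between the combination and compound #57, it was higher in MHCC97H (0.07) and lower in Hep3B (-0.22) and Huh7 (-0.2).

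In the same comparison of the combination with compound #57, STAT2 was higher in MHCC97H (0.8) and Huh7 (0.29) and lower in Hep3B (-0.26). STAT3 was likewise higher in MHCC97H (0.54) and Huh7 (0.17) and lower in Hep3B (-0.21). TYK2 was higher in Huh7 (0.18) and lower in Hep3B (-0.33), and against AZD8055 its values were 0.26 in Huh7 and -0.21 in Hep3B.

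STAT5B with the combination against untreated cells was higher in MHCC97H (0.47) and Huh7 (0.57) and lower in Hep3B (-0.22). Against AZD8055 the combination gave 0.15 in MHCC97H, 0.19 in Huh7 and -0.22 in Hep3B, and compound #57 against untreated cells gave 0.24 in MHCC97H and -0.23 in Hep3B.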

How the results depend on the processing

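Of the counts of members called, those with AZD8055 (2), the combination against compound #57 (2) and the combination against untreated cells (5) fell to 0, 0 and 0 without the replicate block, that is without cell line as a term. With only the compared libraries fitted, the count with AZD8055 was 0. Leaving out 1 line gave 0 to 0 calls with AZD8055, 0 to 1 with compound #57 (1, SOCS2, without MHCC97H), 0 to 5 with the combination and 0 to 2 for the combination against compound #57. The combination count was 0 without Huh7, and that against compound #57 was 0 without Hep3B and without Huh7. Fits without 1 line or with only the compared libraries hold fewer samples. The fit without cell line as a term drops that term and no library. Every fit without 1 line holds the same number of libraries, and the combination count among them still ranged from 0 to 5. The cause of the lower counts was not tested. In the whole table, the combination calls went from 4154 to 11 without Huh7, and limma voom called 90 genes with compound #57 against 1. No count of members called changed beyond 1.5 times with an offset of 10, median centring, the filter on low genes or voom. No called member reversed. Centring lowered changes in MHCC97H, whose median gene was 0.11 higher with compound #57 and 0.10 higher with the combination than untreated (JAK1 with compound #57 from 0.38 to 0.27). With an offset of 10 the SOCS2 change in Hep3B with the combination was 4.92, not 6.63. Depth limits JAK2 and SOCS2, with 41 to 154 and 3 to 828 reads per library.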

Other observations

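Of 11 ligands of the pathway listed, 3 were in the table. CLCF1, a ligand of the gp130 family, rose with the combination (1.46 ± 0.45, adjusted p = 0.0318), although in MHCC97H its reads were 455 untreated and 327 with the combination, and the call was lost with limma voom. LIF, another gp130 ligand, had 161, 492, 84 and 72 reads in Hep3B, 240, 225, 196 and 156 in MHCC97H and 42, 14, 12 and 16 in Huh7, and did not pass with the combination (-0.93 ± 0.54, adjusted p = 0.197). PRLR, the prolactin receptor, was higher in every line with compound #57 (0.97 ± 0.24, adjusted p = 0.101). In Hep3B it had 245 of 10667343 reads untreated and 648 of 15629071 reads treated.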
